A study of Homo sapiens with 6 samples.

Results

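The transcription factors and regulators that carry the integrated stress response were followed in Molm13-Cas9 leukemia cells after loss of COX4I1, a nuclear-encoded subunit of Complex IV of the respiratory chain. The 9 genes ATF4, ATF5, ATF3, DDIT3 (the gene for CHOP), CEBPB, CEBPG, TRIB3, NUPR1 and DDIT4 were taken by symbol from the 19845 gene symbols counted, and all 9 were present in the count table. Molm13 is a human acute myeloid leukemia line with a rearranged MLL gene, and all 6 cultures expressed Cas9, received a guide in the lentiviral ipUSEPR vector and were selected in 1.0 ug/ml puromycin. There were 3 control cultures, sgCtrl #1 to #3, and 3 COX4I1 knockout cultures, sgCOX4I1 #1 to #3, with independent guides according to the methods, so the spread within a group includes differences between guides, and these are pools of edited cells and not clones. The guides of a number differ between the groups, since control and COX4I1 guides have separate sequences. No time after transduction is given by the labels.

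In the integrated stress response, the kinases HRI, PKR, PERK and GCN2 phosphorylate the translation initiation factor eIF2α, which lowers general translation and raises translation of ATF4. ATF4 protein, a basic leucine zipper (bZIP) factor, then pairs with C/EBP proteins and activates genes of amino acid supply, redox control and cell death, among them DDIT3, ATF3, ATF5 and TRIB3. Mitochondrial damage is a known trigger, relayed to HRI by the protease OMA1 and its substrate DELE1. Because ATF4 is controlled largely at translation, counts of its mRNA do not measure its protein, and no protein was measured here.

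RNA-seq gave between 17241014 and 30861943 counts per library. Levels are given as CPM (counts scaled to a common library size, with edgeR's TMM factors between libraries), and a gene with no counts in a library was limited to 0.0972 to 0.174 CPM, a floor of 3 counts that covers counting error only. Fold changes and p-values come from edgeR's quasi-likelihood test over the 11861 genes that passed its expression filter, and a gene was called at a Benjamini-Hochberg adjusted p under 0.05. The targeted gene COX4I1 was at 513, 502 and 463 CPM in sgCtrl #1 to #3 and at 132, 378 and 133 CPM in sgCOX4I1 #1 to #3, so sgCOX4I1 #2 retained 76.7% of the sgCtrl mean and the others 26.7% and 27.0% (log2 fold change -1.21, SE 0.29, adjusted p = 0.0512 by edgeR, and log2 fold change -1.89, adjusted p = 3.37e-06 by edgeR, without sgCOX4I1 #2). On all 6 libraries COX4I1 was called by limma-voom (adjusted p = 0.0291) and not by DESeq2 (adjusted p = 0.243). All 11 myeloid leukemia markers listed passed the filter. Their summed level was 3376 to 4152 CPM in sgCtrl and 3874 to 5042 CPM in sgCOX4I1 libraries, and without lysozyme (LYZ), the most abundant of them, it was 2052 to 2227 and 1794 to 2020 CPM. Of 5 T cell and 5 erythroid markers none passed the filter, with CD3D, CD3G, HBB, HBA1 and ALAS2 among those at 0 counts, whereas PAX5 was the only B cell marker of 4 to pass and KRT8 and KRT18 were the only epithelial ones of 5 to pass, with EPCAM and KRT19 at 0 counts.

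ATF5, CEBPB and TRIB3 rose after COX4I1 loss, with log2 fold changes of 0.68, 0.63 and 0.62, while the mRNAs of ATF4 and of its partner CEBPG had log2 fold changes near 0 with narrow intervals. CHOP mRNA (DDIT3) was not called, and NUPR1 and DDIT4 overlapped between the groups. All 9 genes passed the expression filter, 3 were called, and all 3 were higher in sgCOX4I1. Without sgCtrl #2, or without sgCOX4I1 #2, only ATF5 was called, so the number called was 1. These leave-outs called 24 of 11999 and 51 of 12001 genes tested, beside 247 of 11861 with all libraries. Over all genes tested, 2.08% were called in either direction and 1.06% were called as higher. No member also reached the 2-fold change that the study's methods require, a rule that 0.202% of all genes passed, and the highest log2 fold change of any member under any alternative processing was 0.78. The median log2 fold change of the 9 genes was 0.22, beside -0.0023 over all genes tested. The groups did not overlap, with sgCOX4I1 higher, for 4 of the 9 genes and for 11.2% of all genes tested.

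**Figure D1:**
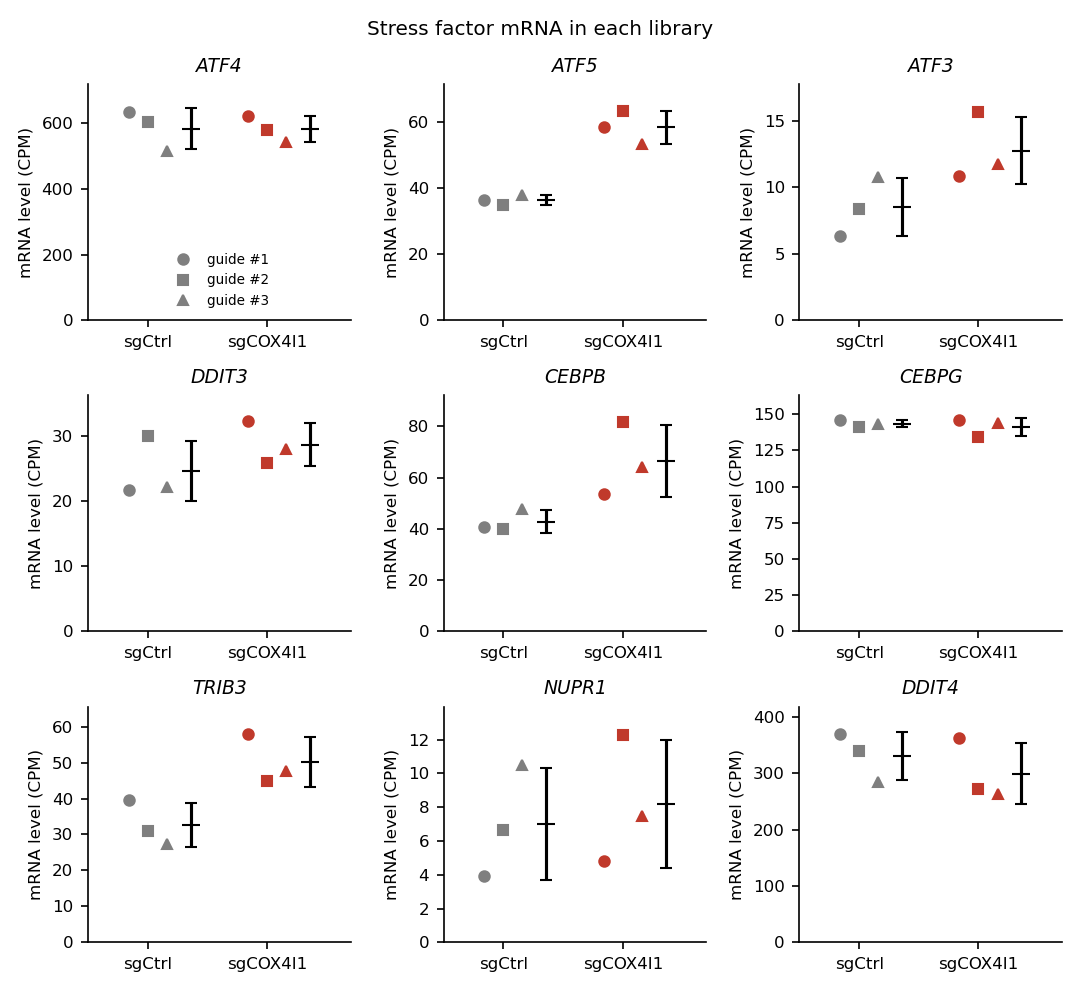
Level of each stress factor mRNA in CPM (y axis, from 0) in the 3 sgCtrl libraries (grey) and the 3 sgCOX4I1 libraries (red), with the guide number as symbol and the mean ± SD in black. ATF5, CEBPB, TRIB3 and ATF3 lie higher in all 3 sgCOX4I1 libraries than in any sgCtrl library, and ATF4 and CEBPG lie at the same height in both groups.

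ATF4, the master regulator of the response, is encoded on chromosome 22 (39519695 to 39522683, plus strand, GRCh38, GENCODE 44). Its mRNA was at 634, 602 and 514 CPM in sgCtrl #1 to #3 and at 622, 579 and 544 CPM in sgCOX4I1 #1 to #3. The groups overlapped completely, and in both the library numbered #1 was the highest and that numbered #3 the lowest. The log2 fold change was -0.0035 (SE 0.092, 95% interval -0.20 to 0.19, adjusted p = 0.988 by edgeR). GENCODE lists 4 processed pseudogenes, ATF4P1 to ATF4P4, and the counting could have split reads between them and ATF4.

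ATF5, the closest relative of ATF4 in this set and a factor tied to the mitochondrial unfolded protein response, had the smallest adjusted p of the 9 genes. It lies on chromosome 19 (49928702 to 49933935, plus strand). Its mRNA was at 36.6, 35.0 and 38.0 CPM in the sgCtrl libraries and at 58.7, 63.4 and 53.4 CPM in the sgCOX4I1 libraries. Every sgCOX4I1 library was above every sgCtrl library, and the sgCtrl values lay close together. The log2 fold change was 0.68 (SE 0.087, 95% interval 0.49 to 0.86, adjusted p = 0.00189 by edgeR), and its call held under all 13 alternatives (log2 fold change 0.62 to 0.74, adjusted p from 4.43e-08 to 0.0440). Of the exonic bases of ATF5, 19.5% are shared with NUP62 on the opposite strand. The library preparation was directional, but the strand setting of the counting is not given in the sources used here.

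ATF3, an early stress factor of the same bZIP class, was expressed at low level. It was at 6.38, 8.36 and 10.8 CPM in sgCtrl and at 10.9, 15.6 and 11.8 CPM in sgCOX4I1 libraries. The groups did not overlap, but the highest sgCtrl and the lowest sgCOX4I1 value nearly met. The log2 fold change of 0.57 (SE 0.19, 95% interval 0.17 to 0.98) was not called (adjusted p = 0.136 by edgeR). It was called with sgCtrl #3 left out (log2 fold change 0.78, adjusted p = 0.0401 by edgeR) and with no filter on low counts (adjusted p = 0.0444). ATF3 lies on chromosome 1 (212565334 to 212620777, plus strand).

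DDIT3 encodes CHOP, a C/EBP family protein that heterodimerizes with other C/EBP factors and is known for promoting cell death under prolonged stress. Its mRNA was at 21.8, 30.0 and 22.3 CPM in sgCtrl and at 32.3, 25.8 and 28.0 CPM in sgCOX4I1 libraries. The sgCtrl #2 value lay above those of sgCOX4I1 #2 and #3, so the groups overlapped. The log2 fold change was 0.22 (SE 0.13, 95% interval -0.058 to 0.50, adjusted p = 0.409 by edgeR), and no alternative called it (lowest adjusted p = 0.209). DDIT3 lies on chromosome 12 (57516588 to 57521737, minus strand), and it is the gene of the 9 with the most shared exonic sequence, since 31.6% of its exonic bases are also exonic on the opposite strand (mostly MARS1) and 8.03% on the same strand.

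CEBPB and CEBPG, the C/EBP proteins that form heterodimers with ATF4 and CHOP, gave 1 call between them. CEBPB (chromosome 20, 50190830 to 50192668, plus strand) was at 40.9, 39.9 and 47.9 CPM in sgCtrl and at 53.7, 81.6 and 64.2 CPM in sgCOX4I1 libraries. Its groups did not overlap, and sgCOX4I1 #2 was the highest. CEBPB rose by a log2 fold change of 0.63 (SE 0.13, adjusted p = 0.0259 by edgeR), a call that was lost without sgCtrl #2 (adjusted p = 0.220), without sgCOX4I1 #2 (log2 fold change 0.46, adjusted p = 0.116) and without sgCOX4I1 #3 (adjusted p = 0.0522). CEBPG (chromosome 19, 33373685 to 33382686, plus strand) was at 146, 141 and 143 CPM in sgCtrl and at 146, 134 and 144 CPM in sgCOX4I1 libraries. All 6 CEBPG values lay close together, with a log2 fold change of -0.020 (SE 0.070, 95% interval -0.17 to 0.13, adjusted p = 0.916 by edgeR). C/EBPβ is also a factor of myeloid differentiation, and the 11 myeloid markers are given beside it. By edgeR 1 of them was called, as lower, beside 1.02% called as lower over all genes tested. MPO and LYZ are described because their changes, seen first, were the largest of the list in either direction. MPO, the granule enzyme myeloperoxidase, fell from 227 ± 8.28 to 109 ± 6.57 CPM (SD, n = 3, adjusted p = 1.60e-05 by edgeR), and LYZ, lysozyme, was at 1590 ± 479 and 2717 ± 600 CPM (adjusted p = 0.0534 by edgeR, and 0.0430, 0.00426 and 0.00775 without sgCtrl #1, sgCtrl #3 and sgCOX4I1 #1). LYZ was called by limma-voom (adjusted p = 0.0493) and by edgeR with no filter (0.000709). Of the 13 alternatives, 6 called LYZ and 7 did not. The other 9 markers had log2 fold changes from -0.23 to 0.15, and none was called by edgeR, DESeq2 or limma-voom, with 2 at an unadjusted p under 0.05, both lower. Over all genes tested, 2054 of 11861 had an unadjusted p under 0.05 by edgeR, 1056 of them higher. The part of these markers in the CEBPB result was not tested, and in bulk RNA fewer cells of a type and less RNA per cell cannot be told apart.

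TRIB3, a pseudokinase that binds ATF4 and CHOP and restrains them, lies on chromosome 20 (362835 to 397559, plus strand). It was at 39.5, 31.0 and 27.5 CPM in sgCtrl and at 58.0, 44.9 and 47.7 CPM in sgCOX4I1 libraries. The groups did not overlap, and the library numbered #1 was the highest in each. TRIB3 rose by a log2 fold change of 0.62 (SE 0.13, 95% interval 0.35 to 0.90, adjusted p = 0.0278 by edgeR). The call was lost without sgCtrl #2 (adjusted p = 0.220), without sgCOX4I1 #1 (log2 fold change 0.51, adjusted p = 0.0538) and without sgCOX4I1 #2 (log2 fold change 0.70, adjusted p = 0.0741). Its paralog TRIB1 was at 40.4 ± 3.59 and 33.4 ± 3.84 CPM (SD, n = 3) and was not called (log2 fold change -0.27, adjusted p = 0.190 by edgeR), while TRIB2 had 0 counts in all 6 libraries, as had NUPR2 and DDIT4L, the paralogs of the genes that follow.

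NUPR1 and DDIT4 are stress effectors that also answer to signals outside this pathway. NUPR1, a small chromatin protein, was at 3.92, 6.62 and 10.5 CPM in sgCtrl and at 4.81, 12.3 and 7.48 CPM in sgCOX4I1 libraries, and its spread within each group exceeded the difference between them. Its log2 fold change of 0.19 carried the widest error of the 9 genes (SE 0.33, 95% interval -0.51 to 0.90, adjusted p = 0.811 by edgeR). NUPR1 (chromosome 16, 28532708 to 28539008, minus strand) shares 16.5% of its exonic bases with a long noncoding RNA gene on the same strand. DDIT4, whose product REDD1 inhibits mTORC1, was at 369, 339 and 284 CPM in sgCtrl and at 361, 272 and 264 CPM in sgCOX4I1 libraries. The groups overlapped, since sgCOX4I1 #1 was second only to sgCtrl #1 of the 6 libraries, and the log2 fold change was -0.15 (SE 0.12, 95% interval -0.40 to 0.11, adjusted p = 0.578 by edgeR). DDIT4 lies on chromosome 10 (72273919 to 72276036, plus strand).

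**Figure D2:**
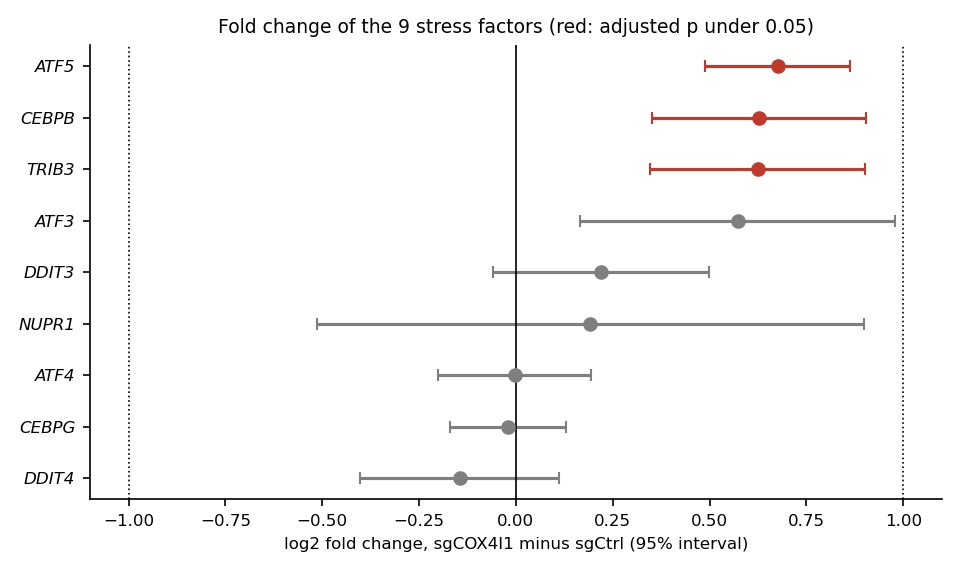
Log2 fold change (sgCOX4I1 minus sgCtrl, x axis) of the 9 stress factors with the 95% interval from edgeR, in red where the adjusted p was under 0.05; dotted lines mark a 2-fold change. ATF5, CEBPB and TRIB3 are red and lie between 0.62 and 0.68, ATF3 at 0.57 is not called, and the intervals of DDIT3, NUPR1, ATF4, CEBPG and DDIT4 include 0.

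The knockout libraries were not ordered alike by the COX4I1 mRNA left and by the stress factors. In sgCOX4I1 #2, where COX4I1 was at 76.7% of its control mean, ATF5 was at 174%, ATF3 at 184% and CEBPB at 190% of their sgCtrl means, the highest of the 3 knockout libraries for each. In sgCOX4I1 #1, where COX4I1 was at 26.7%, ATF5 was at 161%, ATF3 at 128% and CEBPB at 125%. In sgCOX4I1 #3, with COX4I1 at 27.0%, ATF5 was at 146%, ATF3 at 138% and CEBPB at 150%. TRIB3 had another order, at 178%, 138% and 146% in sgCOX4I1 #1 to #3, and DDIT3 was at 131%, 105% and 113%. With 1 library per guide these orders carry no test, and the mRNA does not measure how many cells lost the protein.

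**Figure D3:**
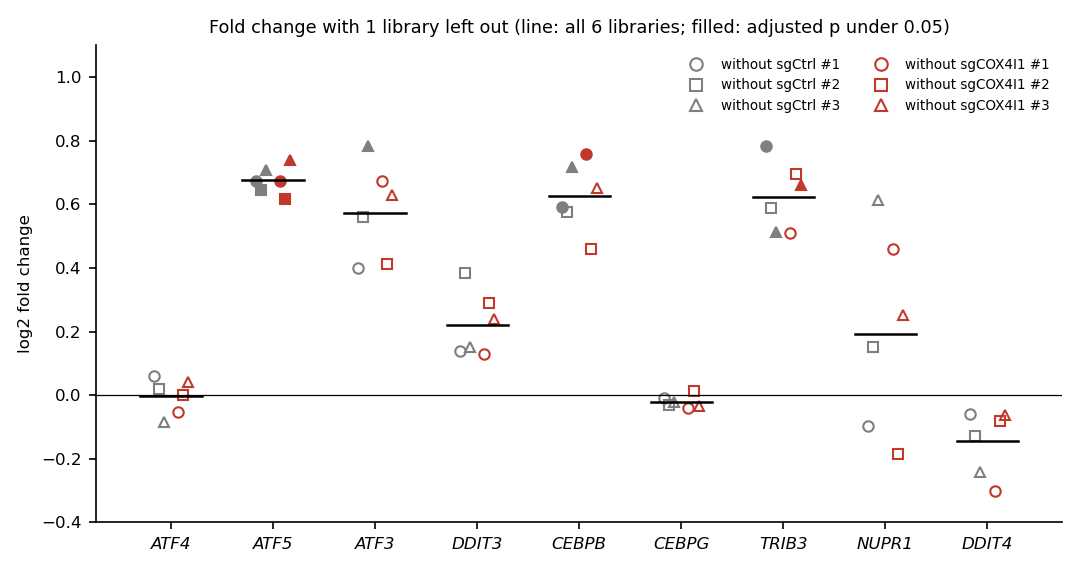
Log2 fold change (y axis) of each stress factor with 1 library left out (grey for sgCtrl, red for sgCOX4I1, symbol by guide number, filled where the adjusted p was under 0.05), beside the value from all 6 libraries (black line). ATF5 stays between 0.62 and 0.74 and filled throughout, CEBPB and TRIB3 each have 3 open symbols, and NUPR1 spans -0.18 to 0.61.

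Per length, ATF4 was the most abundant of the 9 mRNAs. Dividing CPM by the exonic length in kilobases gave 223 ± 23.8 CPM per kb for ATF4 in sgCtrl libraries and 156 ± 20.2 for DDIT4 (SD, n = 3 libraries), and these ranges did not overlap. CEBPG followed at 35.4 ± 0.607 and CEBPB at 23.3 ± 2.38 CPM per kb. DDIT3 at 18.9 ± 3.51 overlapped in range with CEBPB, whereas ATF5 at 12.6 ± 0.529 lay below all DDIT3 values and above all TRIB3 values (9.92 ± 1.88 CPM per kb). ATF3 at 2.13 ± 0.549 and NUPR1 at 1.27 ± 0.601 CPM per kb were the lowest and overlapped in range. In sgCOX4I1 libraries the order of the means changed in 1 place. CEBPB reached 36.1 ± 7.66 CPM per kb and came level with CEBPG at 34.8 ± 1.50, with overlapping ranges. These levels depend on the annotated exons, which for NUPR1 include those of long transcripts.

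Ratios of counts between members within a library do not depend on the scaling between libraries, and 6 of them were compared by two-sided exact permutation tests, for which 3 against 3 libraries allow no p below 0.1. The log2 ratio of ATF5 to ATF4 was -4.11, -4.10 and -3.76 in sgCtrl and -3.41, -3.19 and -3.35 in sgCOX4I1 libraries. It was higher in every sgCOX4I1 library, by 0.68 on average (exact permutation p = 0.1, adjusted p = 0.2 over the 6 ratios). TRIB3 over ATF4 was likewise higher in each sgCOX4I1 library, by 0.63 (exact p = 0.1, adjusted p = 0.2), and CEBPG over CEBPB was lower in each (mean 1.75 ± 0.146 against 1.11 ± 0.364, exact p = 0.1, adjusted p = 0.2). The remaining ratios overlapped between groups. ATF3 over ATF4 differed by 0.60 (exact p = 0.2, adjusted p = 0.24), DDIT3 over ATF4 by 0.23 (exact p = 0.2, adjusted p = 0.24) and TRIB3 over DDIT3 by 0.40 (exact p = 0.4, adjusted p = 0.4). None of the 6 ratios passed 0.05, which this design cannot reach.

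**Figure D4:**
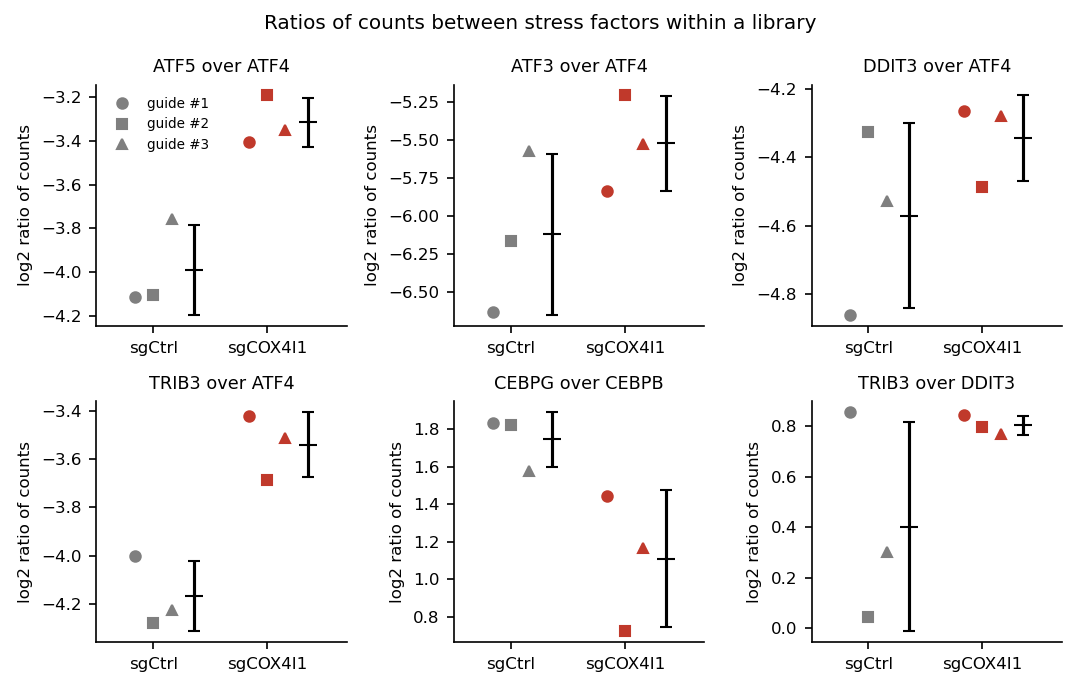
Log2 ratio of counts between pairs of stress factors (y axis, with 0.5 added to each count) in each sgCtrl (grey) and sgCOX4I1 (red) library, symbols by guide number, mean ± SD in black. ATF5 over ATF4, TRIB3 over ATF4 and CEBPG over CEBPB separate the groups, and the other ratios overlap.

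Several target genes had larger fold changes than any of the 9 stress factors. Of 57 genes listed as ATF4 or CHOP targets, 55 were tested (SLC7A3 and FGF21 had 0 counts), 16 were called and all 16 were higher in sgCOX4I1, beside 1.06% called as higher over all genes. Above 0 were 52 of the 55, beside 49.4% of all genes, and their median log2 fold change was 0.24. The list partly repeats genes known from an earlier analysis of these libraries to rise, so its direction is no independent evidence. Without sgCtrl #2 the number called was 4 and without sgCOX4I1 #2 it was 8, all higher. Over all genes tested these leave-outs called 24 of 11999 and 51 of 12001, beside 247 of 11861 with all libraries.

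Among secreted and redox effectors, 5 of 8 tested genes were called, all higher, beside 1.06% called as higher over all genes tested. The median of the 8 genes, 1.00 on the log2 scale, was the highest of the 5 groups of targets. CHAC1, which degrades glutathione, was at 3.27, 3.15 and 2.75 CPM in sgCtrl and at 9.0, 8.31 and 8.63 CPM in sgCOX4I1 libraries. Its log2 fold change was 1.50 (SE 0.17, adjusted p = 0.000638 by edgeR), and the sgCOX4I1 values differed less from each other than from any control value. STC2, a secreted glycoprotein hormone, rose by a log2 fold change of 1.29, ADM2, a peptide hormone, by 1.09, and SESN2, a leucine sensor that restrains mTORC1, by 0.68 (adjusted p = 0.00112, 0.00189 and 0.00212 by edgeR). INHBE, an inhibin subunit, rose by 1.48 (adjusted p = 0.0227 by edgeR), a call lost without sgCtrl #2 (adjusted p = 0.147), sgCOX4I1 #1 (0.0618) or sgCOX4I1 #2 (0.0618).

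Amino acid supply was the other group with several calls. Of 13 genes of amino acid synthesis, 5 were called and all 13 were above 0, and of 9 tested amino acid transporters 5 were called and all 9 were above 0. Over all genes tested, 1.06% were called as higher and 49.4% were above 0. PSAT1, of serine synthesis, rose from 97.4 ± 12.5 to 161 ± 21.6 CPM (SD, n = 3, adjusted p = 0.00387 by edgeR). The glycine transporter SLC6A9 rose by a log2 fold change of 1.77 from 0.918 ± 0.226 CPM (adjusted p = 0.0125 by edgeR), and the cystine transporter SLC7A11 by 1.02 from 40.2 ± 9.80 CPM (adjusted p = 0.00397 by edgeR). ASNS, the asparagine synthetase gene long used as a reporter of ATF4 activity, was at 59.1 ± 7.11 and 76.0 ± 9.64 CPM and was not called by edgeR (log2 fold change 0.36, adjusted p = 0.0894 by edgeR). Without sgCtrl #2 the adjusted p of PSAT1, SLC6A9 and SLC7A11 was 0.0925, 0.0877 and 0.0934, without sgCOX4I1 #2 that of SLC6A9 was 0.0546, and without sgCtrl #1 ASNS was called (log2 fold change 0.47, adjusted p = 0.0133). ASNS was also called on all 6 libraries by DESeq2 (adjusted p = 0.0422) and by edgeR with no filter (0.0221). INHBE, SLC6A9, SLC7A11 and ASNS were named after their values were seen.

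The remaining groups of targets were the tRNA synthetases and the feedback and cell death genes. Of 12 tRNA synthetase genes edgeR called 0, with 6 at an unadjusted p under 0.05, all higher, beside 8.90% of all genes tested, while DESeq2 called 3 and limma-voom 2. The share of all genes tested that edgeR called was 2.08%. Of 13 genes of feedback and cell death, which include several CHOP targets, PMAIP1, which encodes the BH3-only protein NOXA, was the only one called (log2 fold change 0.58, adjusted p = 0.0210 by edgeR). The share called as higher over all genes tested was 1.06%. PPP1R15A, the stress-induced subunit of the phosphatase that reverses eIF2α phosphorylation and a CHOP target, overlapped between groups at 63.9 ± 8.52 and 69.2 ± 11.1 CPM (log2 fold change 0.11, adjusted p = 0.679 by edgeR). Both were named after their values were seen. The difference between groups of targets was not tested.

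**Figure D5:**
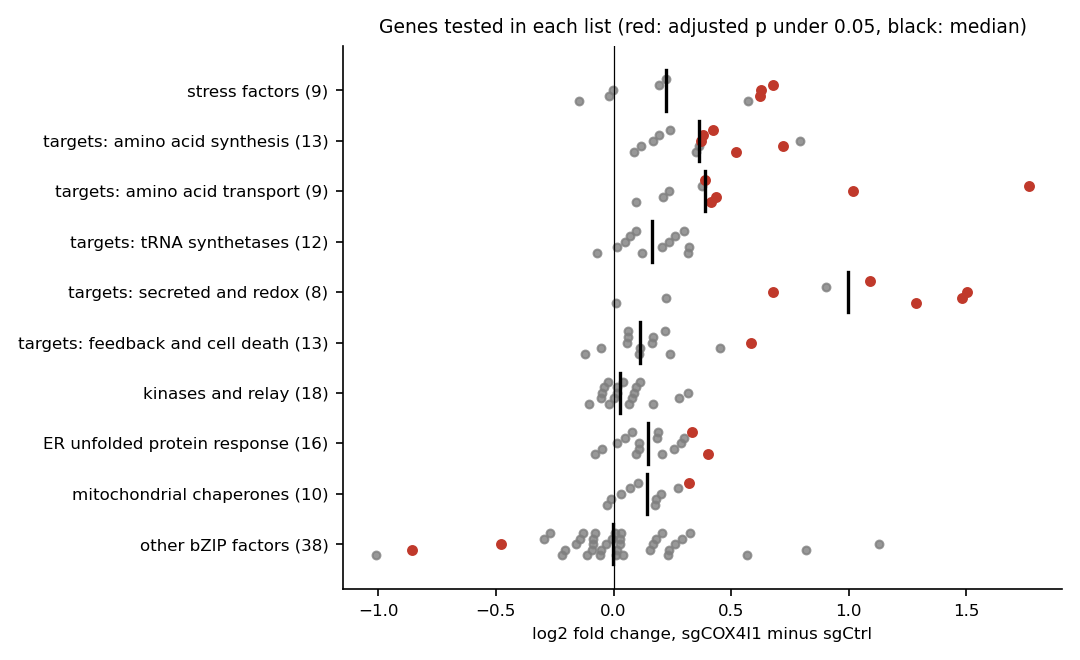
Log2 fold change (sgCOX4I1 minus sgCtrl, x axis) of every tested gene of each list, with the number tested in parentheses, red where the adjusted p was under 0.05 and a black line at the median. The median of the secreted and redox targets (1.00) lies furthest to the right, while the single gene furthest to the right is the transporter SLC6A9 (1.77). The kinases and relay genes centre on 0.03, and the other bZIP factors scatter to both sides.

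Upstream of ATF4, none of the 18 genes of the eIF2α kinases, the OMA1-DELE1 relay, eIF2, eIF2B and the phosphatase was called by edgeR, DESeq2 or limma-voom, and 3 had an unadjusted p under 0.05, all higher, beside 8.90% of all genes tested. Since edgeR called 2.08% of all genes tested, a list of this size with none called says little about these genes. The kinase genes EIF2AK1 (HRI), EIF2AK2 (PKR), EIF2AK3 (PERK) and EIF2AK4 (GCN2) had log2 fold changes of -0.04, 0.06, 0.08 and 0.09 (adjusted p from 0.745 to 0.806 by edgeR). The smallest p belonged to EIF2B3, a subunit of the nucleotide exchange factor eIF2B, at 22.1 ± 2.25 and 27.5 ± 1.61 CPM (log2 fold change 0.32, adjusted p = 0.137 by edgeR). IMPACT, which inhibits GCN2, and PPP1R15B followed with log2 fold changes of 0.28 and 0.17, and IMPACT was called without sgCtrl #1 (0.39, adjusted p = 0.0428). The genes PPP1CA and EIF2S1, with -0.11 and 0.096, were further from the threshold. Activity of these kinases is not visible in their mRNA.

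Among the other bZIP factors, 38 of 41 were tested and 2 were called, both lower, beside 1.02% called as lower over all genes. NFE2, a factor of the megakaryocytic and erythroid lineages, fell from 100 ± 3.49 to 55.5 ± 1.44 CPM (SD, n = 3, log2 fold change -0.86, adjusted p = 8.56e-05 by edgeR) and kept its call under all alternatives. JUND, an AP-1 subunit, was at 790, 775 and 806 CPM in sgCtrl and at 528, 692 and 481 CPM in sgCOX4I1 libraries. Its fall (log2 fold change -0.48, adjusted p = 0.0437 by edgeR) was not called without sgCtrl #2 (adjusted p = 0.220), sgCtrl #3 (0.0583), sgCOX4I1 #1 (0.0845) or sgCOX4I1 #3 (0.153). JUN, another AP-1 subunit, with a log2 fold change of 0.57 (adjusted p = 0.151 by edgeR), overlapped between groups and was highest in sgCOX4I1 #2, as ATF3 and CEBPB were. It was called without sgCOX4I1 #1 (log2 fold change 0.78, adjusted p = 0.0144 by edgeR) and with no filter (0.0201). CEBPE, a granulocytic C/EBP factor at 2.20 ± 0.943 and 1.08 ± 0.283 CPM, was not called (adjusted p = 0.154 by edgeR).

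The stress programs of neighbouring compartments were read from 2 further lists. Of 16 genes of the endoplasmic reticulum (ER) unfolded protein response, HERPUD1, of ER-associated degradation, and HYOU1, an ER chaperone, were called (log2 fold changes 0.40 and 0.34, adjusted p = 0.0203 and 0.0341 by edgeR), beside 1.06% called as higher over all genes, and 14 were above 0, beside 49.4% of all genes. HSPA5, the ER chaperone BiP, lay just outside (log2 fold change 0.30, adjusted p = 0.0560 by edgeR), followed by EDEM1 and SEL1L at 0.29 and 0.26. HSPA5 was called by DESeq2 (adjusted p = 0.00495), by limma-voom (0.0464), and by edgeR without TMM (0.0401), with no filter (0.0265) and without sgCtrl #1 (0.0337). EDEM1 was called by edgeR with no filter (0.0483) and without sgCtrl #3 (0.0376). No gene of the list was called without sgCtrl #2, sgCOX4I1 #2 or sgCOX4I1 #3. Over all genes tested these leave-outs called 24, 51 and 89, beside 247 with all libraries. Of 10 mitochondrial chaperones and proteases, LONP1, the matrix protease, was the only one called by edgeR (305 ± 13.9 to 380 ± 9.85 CPM, log2 fold change 0.32, adjusted p = 0.0369 by edgeR), a call lost with any 1 library left out (adjusted p from 0.0547 to 0.156). This single call stands beside 1.06% called as higher over all genes tested. HSPA9, DNAJA3, TRAP1 and HSPD1 had log2 fold changes of 0.27, 0.20, 0.18 and 0.18, were not called by edgeR, and did not overlap between groups. Of the 10 genes, 6 did not overlap, with sgCOX4I1 higher, beside 11.2% of all genes tested. HSPA9 was called by DESeq2 (adjusted p = 0.00685) and by edgeR with no filter on low counts (0.0494).

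The mRNAs most like ATF4 and DDIT3 across the libraries were found among the 8996 genes whose mean reached 10 CPM, by the root mean square difference of log2 CPM centred on each gene's mean over the 6 libraries. For ATF4 these included ACOT13 and PFDN5, with differences of 0.016 and 0.022 on the log2 scale. ACOT13, a mitochondrial thioesterase gene, was at 42.9, 41.0 and 35.7 CPM in sgCtrl and at 42.0, 39.5 and 36.4 CPM in sgCOX4I1 libraries, the same order of library numbers as ATF4 in both groups. For DDIT3 they were PRKAB2, BCS1L and PLD6, with differences of 0.061, 0.068 and 0.068. PRKAB2 was at 9.75, 13.7 and 10.6 CPM in sgCtrl and at 15.8, 12.6 and 14.2 CPM in sgCOX4I1 libraries, with the sgCtrl #2 value high as for DDIT3. These genes were chosen for likeness over the same 6 libraries, so the shared orders follow from the choice.

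ATF4 with a C/EBP partner is known to bind a composite C/EBP-ATF response element, so the promoters of the members were searched for its core TGATGNAA on both strands (TTNCATCA on the other), and for the cyclic AMP response element TGACGTCA, which reads the same on both. RefSeq promoters (GRCh38.p14, 250 bases before to 50 after each annotated start) were at hand for 8 of the 9 members, NUPR1 having no entry. The composite core was found for ATF3 and CEBPG, and the cyclic AMP response element for none. Of the 9251 tested genes with an entry under their count table symbol, 2.65% held the composite core and 3.85% the cyclic AMP response element. The matches are given with surrounding bases, 5′ to 3′ on the strand of the gene and the match in capitals, together with that of CHAC1, the target gene with the smallest p. The CHAC1 match lies on the opposite strand.
ATF3: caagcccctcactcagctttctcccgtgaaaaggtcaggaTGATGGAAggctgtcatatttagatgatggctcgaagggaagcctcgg
CEBPG: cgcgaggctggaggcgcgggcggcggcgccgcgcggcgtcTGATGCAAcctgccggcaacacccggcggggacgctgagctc
CHAC1: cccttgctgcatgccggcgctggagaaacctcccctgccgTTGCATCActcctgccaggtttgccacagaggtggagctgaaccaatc
These stretches are chr1:212565176-212565263, chr19:33374031-33374112 and chr15:40953222-40953309, all on the plus strand. Of the 3 genes, CHAC1 rose, ATF3 and CEBPG were not called, while ATF5, CEBPB and TRIB3, which rose, had no match in this window. STC2, ADM2, SESN2 and PSAT1, the targets next to CHAC1 by p, rose and also had no match to the composite core. A match is a run of letters and not a shown binding site, and sites outside these windows were not searched. Promoters were looked up by the symbols of the count table, which for the 12 tRNA synthetases are older names, and none of these had an entry. Only 32 of the 55 tested targets had a promoter entry under that symbol, under 80%, so a share over the targets is void and not given.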

How the data were processed

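RNA-seq of 6 Molm13-Cas9 cultures (3 sgCtrl, 3 sgCOX4I1) was analysed. The authors deposited 1 table of raw counts, whole numbers per gene symbol without normalization. The paper's methods name Bowtie2 and RSEM on GRCh38.p14, whereas the submitters' processing notes name STAR 2.6.0a and GRCh38 and the column names also point to marked duplicates and HTSeq. The columns were matched to samples by letter and guide number, C for sgCtrl and K for knockout.

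All values were computed with R 4.3.3, edgeR 4.0.16 (TMM, filterByExpr, quasi-likelihood test without covariates, Benjamini-Hochberg adjustment over 11861 genes) and Python 3.11.15. DESeq2 1.42.0, limma-voom (limma 3.58.1), other scalings and filters, the replicate number as a block and each library left out were alternatives. Ratios added 0.5 to each count. Positions and lengths came from GENCODE 44. The edgeR test was first checked on simulated counts. Replicates differed by more than sampling noise (chi-square over degrees of freedom between 11.0 and 27.5), so none was counted as a copy. Depth was 17241014 to 30861943 counts per library. The share of counts on mitochondrially encoded mRNAs was 2.93%, 3.97% and 4.84% in sgCtrl #1 to #3 and 3.26%, 3.65% and 4.99% in sgCOX4I1 #1 to #3.

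The members and lists were chosen with earlier results of these data known. Genes named were the members, COX4I1, up to 5 genes with the smallest p of each other list, and the 3 mRNAs most like ATF4 and DDIT3, unless the text says that they were named after their values were seen. Some genes that this rule or a list names are not reported here. Proteins and guide sequences were not used here.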

Additional observations from a re-analysis of the deposited data

How the results depend on the processing

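The text turns on 3 libraries per group, each with its own guide, and every alternative was run on the same libraries. The number of stress factors called (3) ranged from 1 to 4 with a library left out, and was 0 when a 2-fold change was also required. Called target genes ranged from 4 to 23 with a library left out, other bZIP factors from 1 to 3, kinases and relay genes from 0 to 1, ER genes from 0 to 3 and mitochondrial chaperones gave 0 each time, beside 16, 2, 0, 2 and 1 with all libraries. Over all genes these leave-outs gave 24 (without sgCtrl #2) to 561 calls (without sgCtrl #1), beside 247. With no filter on low counts, 4 bZIP factors, 4 ER genes, 2 mitochondrial chaperones and 537 of all genes were called, and DESeq2 called 2 mitochondrial chaperones and 436 of all genes. COX4I1 was called with no filter (log2 fold change -1.20), with limma-voom (-1.40) and without sgCtrl #1, sgCtrl #3 or sgCOX4I1 #2, and over all leave-outs, called or not, it ranged from -1.89 to -0.95. It was not called by DESeq2 (adjusted p = 0.243), nor by edgeR without sgCtrl #2 (adjusted p = 0.2725), sgCOX4I1 #1 (0.0773) or sgCOX4I1 #3 (0.125).

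The replicate number was not used as a pairing in the main test. Deviations from the group means correlated at 0.38, -0.024 and 0.29 between the sgCtrl and sgCOX4I1 libraries numbered #1, #2 and #3. Libraries #1 and #3 correlated best with their own number, and those of #2 did not. The correlation was -0.38 for sgCtrl #3 with sgCOX4I1 #1, and -0.32 for sgCtrl #1 with sgCOX4I1 #3. Deviations cancel within a group, so positive values force negative ones elsewhere, and these are not separate observations. Whether libraries of the same number share a batch was not tested. With the number as a block, 32 targets, 9 other bZIP factors, 2 kinases and relay genes, 6 ER genes, 5 mitochondrial chaperones, 4 stress factors (ATF3 in addition, adjusted p = 0.0179 by edgeR) and 1408 of all genes were called, and COX4I1 had a log2 fold change of -1.39.

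Genes near 0 changed sign without coming near a call. ATF4 was at 0.0094 without TMM, 0.0010 with no filter, 0.00011 with limma-voom, 0.00010 with the block, and -0.086 to 0.060 with a library left out. With 1 library left out, CEBPG ranged from -0.041 to 0.015, NUPR1 from -0.18 to 0.61, PPP1R15A from -0.013 to 0.21, EIF2AK2 from -0.0063 to 0.13 and EIF2AK4 from -0.0098 to 0.20. The cause was not tested.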
